A study of Mus musculus with 4 samples.

Results

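E2F1 occupancy was examined at the promoters of 59 genes of DNA replication and nucleotide supply, chosen by name from the pathway. A gene counted as having a peak when an E2F1 peak of the deposited table overlapped the window from 1000 bp upstream to 500 bp downstream of any of its transcript starts, on the GENCODE M1 annotation of mm9. Of the 59 genes, 11 (18.6%) had such a peak, 1 peak each, and 48 had none in the table analysed here. Across the 22238 protein-coding genes of the same annotation, 4227 (19.0%) had a promoter peak, so the replication genes were covered at about the rate of coding genes at large. The 11 peaks were taken from 4523 peaks in all, of which 4090 overlapped the promoter window of some gene, and the other 4079 promoter peaks serve as the comparison below.

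The measurements are ChIP-seq of E2F1 in mouse embryonic stem cells (ESCs), with 2 biological replicates from serum ESCs, kept in serum medium with LIF, and 2 from 2i ESCs, kept in defined medium with LIF, PD0325901 (PD) and CHIR99021 (Chiron). PD blocks the MEK and ERK pathway and Chiron blocks GSK3, and both cultures had been adapted for more than 20 days. Neither the ESC line nor a genetic change is given for these samples in the sources used here, and the ESC identity could not be checked against marker genes, since occupancy of a transcription factor does not measure expression. Values are normalized counts, that is, reads in a peak divided by 1 size factor per sample. Reads in peaks ranged from 248878 in serum replicate 1 to 710519 in 2i replicate 1. At the 11 replication peaks this amounted to 8 to 169 reads in the first serum replicate and 19 to 208 in the second, and to 33 to 298 and 15 to 155 in the first and second 2i replicates.

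Replication starts when the origin recognition complex, CDC6 and CDT1 load the MCM helicase onto DNA. The kinase CDC7 with DBF4, together with TOPBP1, CDC45 and the GINS complex, then turns the loaded helicase into an active fork, where polymerases, the PCNA clamp, its RFC loader and RPA copy and protect the DNA. Ribonucleotide reductase, thymidylate synthase and dUTPase supply the nucleotides. Many of these genes are textbook targets of E2F transcription factors, which are held in check by RB family proteins in G1 and released as cells enter S-phase.

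The sequences of the peaks were read on the NCBIM37 genome (mm9). The E2F motif was searched on both strands as 4 words of 8 letters, TTTCCCGC, TTTGGCGC, TTTCGCGC and TTTGCCGC, and 3 of the 11 replication peaks (27.3%) held at least 1 of them, at Timeless, Topbp1 and Pole. Among the other promoter peaks, 6.59% did. The 4 sites are shown 5′ to 3′ on the strand of the gene with the word in capitals, because they are the only full-length matches inside the replication peaks.
Timeless, chr10:127669149-127669178, plus strand: tcagccgagtgGCGGGAAAggctgcgaccc
Timeless, chr10:127669313-127669342, plus strand: tgagcggctacTTTCCCGCcgcgcggttga
Topbp1, chr9:103207517-103207546, plus strand: ccgctcggttgGCGCGAAAgtcggttcccg
Pole, chr5:110715351-110715380, plus strand: acgtggagagcGCGCCAAAttctccccgga

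The words began 30 bp upstream and 134 bp downstream of the nearest start of Timeless, 17 bp upstream of that of Topbp1 and 2 bp downstream of that of Pole. A match is a string of letters and not a measured binding site. With the first T of each word left out, which gives words of 7 letters, 7 of the 11 peaks (63.6%) held a match, the further ones being Wdhd1, Chaf1a, Rfc5 and Rfc1, against 36.8% of the other promoter peaks. No 7-letter match was found in the peaks of Rrm2, Dut, Gins1 and Dbf4. The CCAAT box, read as CCAAT on either strand, lay in 5 of the 11 (45.5%), at Pole, Rfc1, Rrm2, Chaf1a and Gins1, against 26.1% of the others. The GC box GGGCGG was common to both sets, in 10 of 11 and in 94.8%.

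For 3 peaks, the part upstream of the gene's start is shown. They were the only ones where this part was long enough and overlapped no annotated UTR. None of the 3 holds an 8-letter word, and Rfc1 was called between the conditions. Capitals mark 7-letter E2F words and CCAAT boxes on either strand.
Rfc1, chr5:65726910-65727151, minus strand: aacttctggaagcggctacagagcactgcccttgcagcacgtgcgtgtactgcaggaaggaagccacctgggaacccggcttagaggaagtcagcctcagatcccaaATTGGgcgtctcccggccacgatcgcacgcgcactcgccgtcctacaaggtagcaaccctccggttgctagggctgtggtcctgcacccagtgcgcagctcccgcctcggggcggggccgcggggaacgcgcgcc
Chaf1a, chr17:56179664-56179826, plus strand: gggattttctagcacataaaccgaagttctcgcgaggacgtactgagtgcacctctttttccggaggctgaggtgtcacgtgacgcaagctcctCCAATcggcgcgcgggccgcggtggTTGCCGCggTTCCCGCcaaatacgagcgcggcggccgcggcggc
Rrm2, chr12:25392983-25393105, plus strand: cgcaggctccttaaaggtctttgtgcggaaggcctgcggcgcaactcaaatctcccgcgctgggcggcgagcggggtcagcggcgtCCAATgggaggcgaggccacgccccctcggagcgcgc

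Chaf1a carries both of its 7-letter words next to each other just upstream of its start, in Rfc1 the E2F words of the peak lie outside the stretch shown, and Rrm2 has a CCAAT box and no E2F word in this stretch. Of the 11 peaks, 10 spanned a start of their gene, and their centres lay 3 to 98 bp from the nearest start of any gene (median 53 bp), against a median of 92 bp for the other promoter peaks. The map of peak positions shows this arrangement. The exception was Gins1, whose peak ended 529 bp before the start of a non-coding transcript of the gene and 4723 bp before its protein-coding start at 150735330. That peak spans the start of Abhd12 at 150730477.

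**Figure D1:**
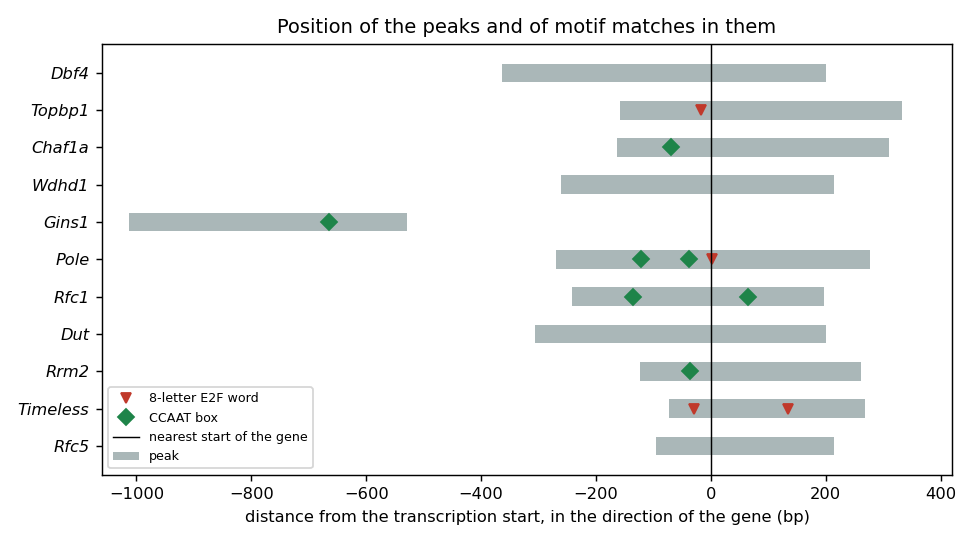
Position of the 11 E2F1 peaks (grey bars) relative to the nearest start of their gene, in bp in the direction of the gene, with 8-letter E2F words (red triangles) and CCAAT boxes (green diamonds) inside the peaks. A reader should see that 10 peaks span the start, that the Gins1 peak does not, and that E2F words occur in Timeless, Topbp1 and Pole.

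At 5 of the 11 peaks the window also belonged to a second protein-coding gene, namely Slc25a40 at Dbf4, 1300017J02Rik at Topbp1, Socs4 at Wdhd1, Abhd12 at Gins1 and Pxmp2 at Pole. The signal there cannot be given to 1 gene alone. Among the other promoter peaks, 9.02% reached 2 or more coding genes, but a peak shared by 2 genes can enter a gene list through either of them.

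E2F1 signal at the replication peaks spread over much of the range of promoter peaks, with Dbf4 and Topbp1 above the middle 50% and Rrm2, Timeless and Rfc5 below it. The median of the 11 mean normalized counts was 45.2, against 65.5 for the other promoter peaks, a ratio of 0.690. Sample by sample, the median of the replication peaks was 0.806 and 0.627 times that of the other promoter peaks in the serum replicates and 1.10 and 0.770 times in the 2i replicates. The ratio was thus below 1 in 3 of the 4 samples. The middle 50% of the other promoter peaks ran from 38.2 to 114, with 6 replication peaks inside it, 2 above and 3 below. Per kb of peak length the medians were 91.5 and 128.

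**Figure D2:**
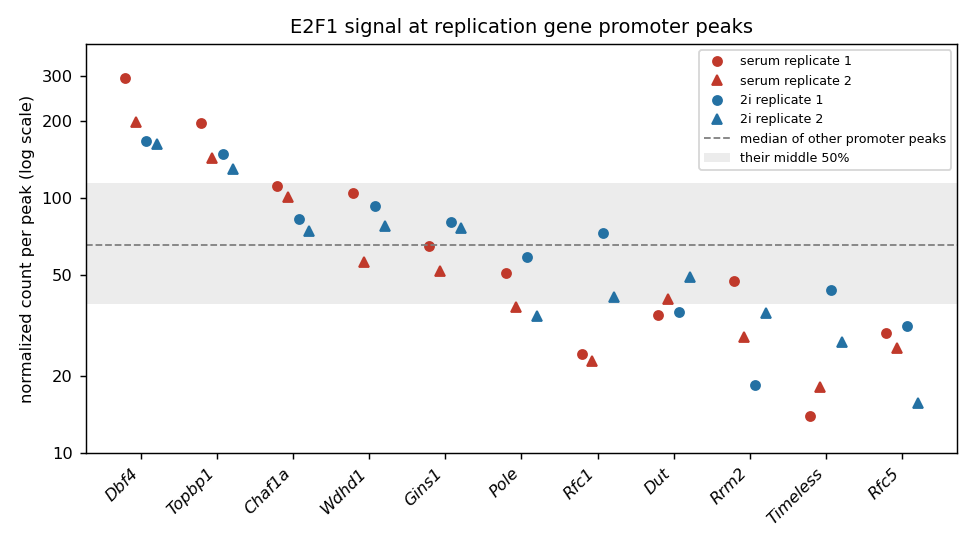
Normalized count per peak (log scale) at the 11 replication peaks in the 4 samples, ordered by mean, with the median (dashed line) and the middle 50% (grey band) of the mean signal of the other promoter peaks. Dbf4 and Topbp1 lie above the band, and only Rfc1 and Timeless were called between serum (red) and 2i (blue).

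Between serum and 2i ESCs, 2 of the 11 replication peaks were called, at Rfc1 and Timeless, both lower in serum. The call required an absolute log2 fold change above 1 together with a limma p below 0.05 before adjustment, in a fit of all 4523 peaks. Of all peaks 10.3% were called, 5.48% as lower in serum, and of the other promoter peaks 9.46%, so with 11 peaks the count of 2 lies near what the whole table gives. With limma p-values adjusted by Benjamini and Hochberg over all peaks, 0 of the 11 were called, where 1.46% of all peaks were, while at an unadjusted limma p below 0.05 there were 2 of the 11 and 807 of all peaks. The adjusted count over all peaks, 66, was itself unstable, with 271 under the replicate block, 0 without the variance trend or without serum replicate 1, and 33, 17 and 11 without serum replicate 2, 2i replicate 1 and 2i replicate 2. With edgeR and DESeq2 on recovered reads, 0 of the 11 replication peaks were called after adjustment, against 77 and 102 of all peaks. The median log2 fold change, serum over 2i, was -0.05 at the replication peaks and -0.04 at the other promoter peaks. The sign at the replication peaks was not stable, since the median was 0.30 without serum replicate 2, 0.05 without 2i replicate 1, 0.28 over the 5 peaks with a mean of at least 50 and 0.11 over the 10 peaks left without Gins1. Signs were mixed, with 5 positive and 6 negative. Serum and 2i replicates were fully separated at 5 of the 11 peaks (Dbf4, Chaf1a, Gins1, Rfc1 and Timeless), and at 49.3% of all peaks.

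**Figure D3:**
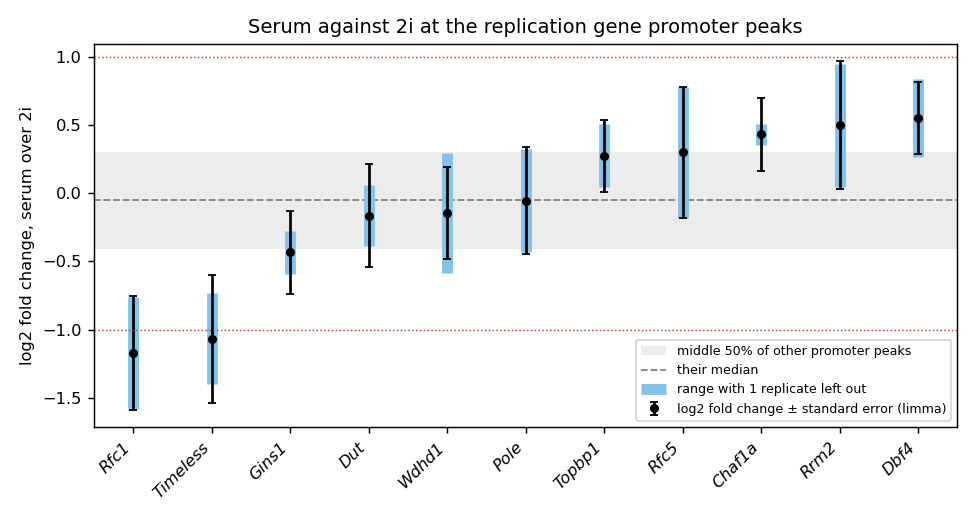
Log2 fold change (serum over 2i) with its standard error from limma at the 11 replication peaks (black), the range of the fold change with each replicate left out in turn (blue), and the middle 50% and median of the other promoter peaks (grey). Rfc1 and Timeless lie below -1 (red dotted line), and the other 9 lie between the thresholds.

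Among the genes of the sliding clamp and its loader, Rfc1 and Rfc5 had peaks and Pcna, Rfc2, Rfc3 and Rfc4 did not. Rfc1 encodes the large subunit of the RFC clamp loader, which opens PCNA rings and places them on DNA. Its peak (chr5:65726712-65727151) held a normalized count of 24.4 and 22.9 in the serum replicates and 72.8 and 40.7 in the 2i replicates. Both 2i values lay above both serum values, although they differed from each other far more than the serum values did. The log2 fold change was -1.17 (standard error 0.42, unadjusted p = 0.0170, adjusted p = 0.181, limma). It was called with edgeR and DESeq2 on reads, but not with a pseudocount of 8 (-0.99), without serum replicate 2 (-1.13) or without 2i replicate 1 (-0.76). Rfc5 encodes a small subunit of the same loader. Its peak (chr5:117838817-117839126) had the lowest mean of the 11, with 29.6 and 25.7 in serum and 31.4 and 15.6 in 2i, and the conditions overlapped. The log2 fold change at Rfc5 was 0.30 (standard error 0.48), but -0.18 without 2i replicate 2 and 0.78 without 2i replicate 1. Its difference from that at Rfc1 was not tested.

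Fork stability and checkpoint mediation was represented by Timeless and Wdhd1, without Tipin and Clspn. Timeless works with TIPIN to hold the helicase and the polymerases together at the fork. The Timeless peak (chr10:127669117-127669459) held 13.9 and 18.1 in serum and 43.7 and 27.1 in 2i, from 8, 19, 78 and 26 reads, so it is also one of the least precise. All 2i values were higher than all serum values. Its log2 fold change was -1.07 (standard error 0.47, unadjusted p = 0.0439, adjusted p = 0.265, limma). The call was lost with a pseudocount of 8 (-0.83), cyclic loess normalization (-0.77), DESeq2, and without serum replicate 1, 2i replicate 1 or 2i replicate 2, while the log2 fold change remained negative, from -1.40 to -0.73, when single replicates were omitted. Wdhd1, which encodes a factor that links the helicase to polymerase alpha, had 105 and 56.2 in serum and 92.9 and 77.2 in 2i. Its 2i values lay between the serum values. The log2 fold change was -0.14 (standard error 0.34) and turned to 0.30 without serum replicate 2.

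Of the 8 origin firing genes, Dbf4, Topbp1 and Gins1 had peaks, and Cdc7, Cdc45, Gins2, Gins3 and Gins4 had none. Dbf4, the activating subunit of the CDC7 kinase, had the strongest peak of the 11, ranked 381 of 4090 promoter peaks. It held 294 and 198 in serum and 167 and 162 in 2i (chr5:8422515-8423080). Both serum values were above both 2i values, and limma gave 0.55 on the log2 scale (standard error 0.27, adjusted p = 0.302), short of the threshold of 1. That value became 0.27 without serum replicate 1 and 0.84 without serum replicate 2. Topbp1 encodes a scaffold that brings CDC45 to the helicase and activates the ATR kinase. Its peak (chr9:103207387-103207877) ranked 631 and held 197 and 143 in serum and 148 and 129 in 2i, where the conditions overlapped (log2 fold change 0.28, standard error 0.26). For Topbp1 the value became 0.05 without serum replicate 1, 0.51 without serum replicate 2 and 0.18 without 2i replicate 2.
The peak counted for Gins1, a GINS subunit, lies at the Abhd12 start (chr2:150730123-150730607). It held 64.5 and 51.5 in serum and 80.1 and 76.2 in 2i, with no overlap, and -0.43 on the log2 scale in limma (standard error 0.30, adjusted p = 0.488), which became -0.27 without serum replicate 2. With a window of 500 bp either side, or with protein-coding transcripts only, Gins1 was left out and 10 genes had a peak.

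Only 1 of the 9 polymerase and primase genes had a peak, Pole, which encodes the catalytic subunit of the leading strand polymerase epsilon. The peak is centred 3 bp from a start of the gene (chr5:110715090-110715637) and held 50.5 and 37.2 in serum and 58.8 and 34.4 in 2i. The serum values lay between the 2i values, and the log2 fold change was -0.05 (standard error 0.39). It turned to 0.16 without serum replicate 2 and to 0.32 without 2i replicate 1.
In nucleotide supply, peaks lay at Rrm2 and Dut, and not at Rrm1, Tyms, Tk1 and Dck. Rrm2 encodes the small subunit of ribonucleotide reductase, which makes deoxyribonucleotides in S-phase. Its peak (chr12:25392983-25393367) had 47.0 and 28.6 in serum and 18.5 and 35.5 in 2i. The conditions overlapped, and the limma estimate of 0.50 on the log2 scale (standard error 0.47, adjusted p = 0.629) moved between 0.05 and 0.95 when single replicates were omitted. Dut, the dUTPase that keeps uracil out of DNA, held 34.8 and 40.0 in serum and 35.8 and 49.0 in 2i (chr2:125072912-125073419), with overlap and a log2 fold change of -0.16 (standard error 0.38), which turned to 0.058 without 2i replicate 2.
Chaf1a, the large subunit of the chromatin assembly factor CAF-1 that places histones behind the fork, had a peak and Chaf1b did not. The Chaf1a peak (chr17:56179664-56180137) held 112 and 101 in serum and 82.9 and 74.1 in 2i. Every serum value was above every 2i value, and the replicates lay close together (mean ± SD of 106 ± 7.40 for serum and 78.5 ± 6.22 for 2i, n = 2 per condition). In limma, serum over 2i was 0.43 on the log2 scale (standard error 0.27, adjusted p = 0.426).

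In 6 roles, with 24 genes, none had a promoter peak. These roles were the origin recognition complex (Orc1, Orc2, Orc3, Orc4, Orc5 and Orc6), helicase loading and its control (Cdc6, Cdt1 and the CDT1 inhibitor Gmnn), the MCM helicase (Mcm2, Mcm3, Mcm4, Mcm5, Mcm6 and Mcm7), Mcm8 and Mcm10, replication protein A (Rpa1, Rpa2 and Rpa3), and Okazaki fragment maturation with RNase H2 (Fen1, Lig1, Rnaseh2a and Rnaseh2b). The polymerase and primase genes without a peak were Pola1, Pola2, Prim1, Prim2, Pold1, Pold2, Pold3 and Pole2. Only peaks shared by both replicates of a condition entered the table, and the signal at promoters outside it was not analysed here, so the lack of a peak is not a measurement of no occupancy.

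**Figure D4:**
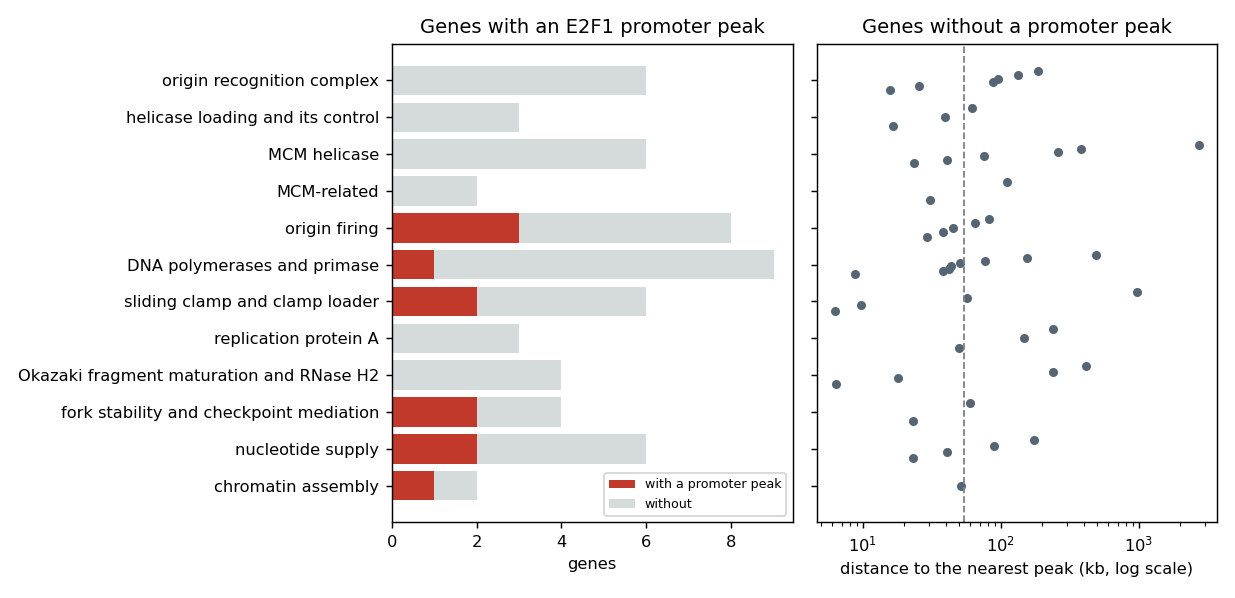
Left, number of genes with (red) and without (grey) an E2F1 promoter peak in each of the 12 roles. Right, distance in kb (log scale) from the nearest start of each of the 48 genes without a promoter peak to the nearest peak in the table, with the median of 53.8 kb as a dashed line.

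The nearest peak in the table lay 6251 bp to 2737758 bp from the starts of the 48 genes (median 53761 bp), within 10 kb at 4 genes and beyond 100 kb at 14. At 45 of the 48 genes this neighbour lay in the promoter window of another gene. For Pcna, the clamp itself, it was 9726 bp upstream at Cds2, and for Rfc4 it was 6251 bp downstream at Eif4a2. For Prim1, the catalytic primase subunit, it was 8787 bp downstream at Naca. Rnaseh2a had a peak 6429 bp upstream that is in no gene's promoter window. Mcm6, a helicase subunit, was at the other end with 2737758 bp to the nearest peak.

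The promoters of these 48 genes often held an E2F word. From 250 bp before to 50 bp after the most upstream protein-coding start, 15 of the 48 (31.3%) had at least 1 of the 8-letter words, against 4 of the 11 genes with a peak (Timeless, Topbp1, Pole and Gins1) and 2.71% of the 22173 other coding genes. The 15 were Orc1, Orc3, Cdc6, Cdt1, Gmnn, Mcm3, Mcm4, Mcm5, Mcm6, Mcm8, Gins3, Pola1, Pole2, Rfc3 and Tipin, and 11 of them also had a CCAAT box in the window. Sites of 7 promoters are shown because they carry the same words as the peaks above while no peak of the table lies there, with the word in capitals on the strand of the gene.
Orc1, chr4:108252021-108252050, plus strand: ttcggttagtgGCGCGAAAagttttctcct
Cdc6, chr11:98769144-98769173, plus strand: agtagagcggcTTTGGCGCgagttgacttt
Cdt1, chr8:125091936-125091965, plus strand: ggaactaccttTTTGGCGCcatggcgcaaa
Mcm5, chr8:77633449-77633478, plus strand: ggaggctggttTTTCCCGCgaaagtcggct
Mcm6, chr1:130256311-130256340, minus strand: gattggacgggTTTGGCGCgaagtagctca
Tipin, chr9:64129362-64129391, plus strand: gcctacccttgGCGCCAAAtttctcagctt
Gins1, chr2:150735310-150735339, plus strand: ggttgagcctaTTTGGCGCcaaagcgagga

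The word of Gins1 begins 9 bp upstream of its protein-coding start, away from the peak counted for the gene. It overlaps a second word on the other strand. Mcm5 and Mcm6 had 3 matches each in the window, counting overlapping words. Among the replication genes, 4 of 19 with an 8-letter word (21.1%) and 7 of 40 without (17.5%) had a peak. Among other coding genes the shares were 31.8% of 601 and 18.7% of 21572. These are counts of genes, given as a description.

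**Figure D5:**
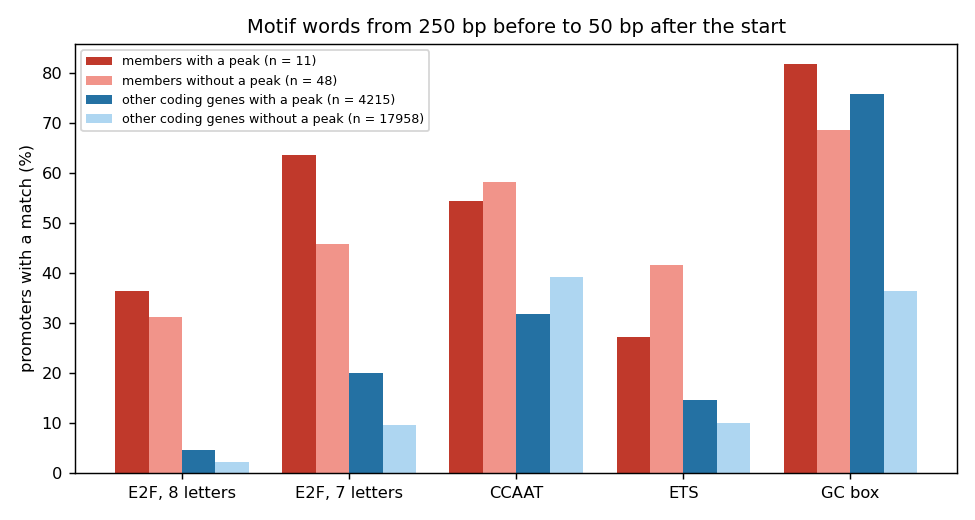
Share of promoters (%), from 250 bp before to 50 bp after the start, with at least 1 match to each motif on either strand, for replication genes with and without a promoter peak (red and pink) and other coding genes with and without one (dark and light blue). ETS stands for CCGGAAG and GC box for GGGCGG. The 8-letter E2F words were in 36.4% and 31.3% of the replication promoters and in 4.53% and 2.28% of the others.

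The other motifs were counted in the same promoter windows. The CCAAT box was in 6 of the 11 promoters with a peak and 28 of the 48 without (58.3%), against 37.9% of other coding genes. The ETS word CCGGAAG was in 3 of 11 and in 20 of 48 (41.7%), against 10.9%. The GC box was in 9 of 11 and in 33 of 48 (68.8%), against 75.9% of the other genes with a peak and 36.5% of those without. The CHR word TTTGAA was in 1 of 11 and in 5 of 48 (10.4%), against 16.2% of other coding genes. The NRF1 word GCATGCGC was in 1 of 11 and in 6 of 48 (12.5%), against 3.36%.

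Beyond the 59 genes, 60 more genes of the pathway were looked up, 29 of the replication machinery and 31 of nucleotide synthesis. Of these, 19 (31.7%) had a promoter peak, with 20 peaks in all. The share was 18.6% for the 59 genes and 19.0% for all protein-coding genes, and the difference was not tested. In the replication machinery 12 genes had a promoter peak: Mcm9, Mcmbp, Pole4, Dna2, Donson, Chtf8, Rif1, Top1, Mms22l, Asf1a, Rbbp7 and Supt16h. In nucleotide synthesis 7 had one: Dctd, Ctps, Cmpk1, Uck2, Gart, Impdh1 and Adss. Some of these peaks also lay in the window of another gene, such as Cirh1a at Chtf8 and Son at Gart. Of the 20 peaks, 1 was called, where the same rule called 10.3% of all peaks, 5.48% as lower in serum. It lay at Dna2, which encodes a nuclease and helicase that trims Okazaki flaps. The Dna2 peak held 27.9 and 23.8 in serum and 53.7 and 54.2 in 2i, and was called lower in serum. The limma estimate was -1.04 on the log2 scale (standard error 0.38, unadjusted p = 0.0183, adjusted p = 0.188), just past the threshold of 1. Of the alternatives, only the replicate block was examined for these 20 peaks, and it called the same peak. Whether the call holds under the others was not tested. The median log2 fold change of the 20 peaks was 0.07.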

How the data were processed

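E2F1 ChIP-seq of 2 serum and 2 2i replicates was analysed from the peak table. Alignment was by BWA to mm9. The authors took out duplicates and blacklisted regions, called peaks per sample with macs2, intersected replicates, merged conditions and counted reads with bedtools multicov. The deposited signal is these read counts divided by 1 size factor per sample. Low values are whole multiples of 1 read (99.8% to 100% of values per sample within 0.01 read), and 9 serum values deposited as 2 were taken as 0 reads in count tests. 3 reads correspond to a normalized count of 1.68 to 5.23. Versions of these tools are not given in the sources used here.

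Serum and 2i were compared with limma 3.58.1 (R 4.3.3; eBayes, variance trend) on log2(normalized count + 1) over all peaks, without a block. The log2 fold threshold of 1 and the p of 0.05 are those of the study, whose text names no adjustment. Its DESeq2 test needs counts, so it was an alternative here. With 2 replicates per condition an exact permutation test of 1 peak cannot go below p = 0.333, so p-values rest on the spread shared across peaks, and floors and read numbers cover counting error only. A log2(value + 1) scale understates changes of weak peaks. Alternatives were other pseudocounts and scalings, a minimum mean of 50, the replicate block, no trend, edgeR 4.0.16, DESeq2 1.42.0, each replicate left out, and other windows and motif settings. Tests were tried on simulated data. Peaks are printed as deposited, with no statement whether starts count from 0 or 1, and their sequences were read from start to end counting from 1. Ticrr was matched under its older name. Members, lists and motifs were chosen with earlier results of these data known. Every one of the 59 genes is named, with values in each sample for every member peak and, of the further pathway genes, for called peaks only. Summaries and figures used Python 3.11.15.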

Additional observations from a re-analysis of the deposited data

How the results depend on the processing

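The count of 2 called replication peaks (Rfc1 and Timeless) was the same with a pseudocount of 0.1, both rescalings, no variance trend, edgeR and the other promoter windows. It became 0 with a pseudocount of 8 and 0 of the 5 peaks left by a minimum mean of 50, and 1 (Rfc1) with cyclic loess normalization and with DESeq2. With each replicate left out in turn it ran from 0 to 1, where the lone sample of a condition is assumed to vary like the other condition. The replicate block gave 2 called peaks, the same ones, and 0 after adjustment, and changed no call of a named peak. The deviations of same-numbered samples had a correlation of 0.048 across peaks, so no shared deviation was seen. The labels do not say whether same-numbered samples were processed together, and a low correlation cannot settle it. The adjusted count stayed at 0 under every alternative that was run. The median log2 fold change, -0.05, lay between -0.18 and 0.30 when single replicates were omitted. At single peaks the sign turned at Wdhd1 (-0.58 to 0.30), Pole (-0.43 to 0.32), Dut (-0.38 to 0.058) and Rfc5 (-0.18 to 0.78), none of them called. The share of replication peaks with an E2F word, 27.3%, became 63.6% with the 7-letter words and 18.2% within 100 bp of the peak centre. Among the other promoter peaks the share moved from 6.59% to 36.8% and 1.89% in the same settings. The ratio of median signal, 0.690, ran from 0.637 to 0.869 over its alternatives. Serum replicate 1 had the fewest reads, and 6 of the 11 peaks held fewer than 30 reads in it. Apart from the construction of the filter and of the pseudocount, the cause of these shifts was not tested.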
